A study of Mus musculus with 6 samples.

Results

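The miR-199 and miR-214 miRNAs were followed in small RNA libraries made from extracellular vesicles of mouse muscle. The members were chosen by identifier, as every locus of miR-199a-5p (MIMAT0000229), miR-199a-3p (MIMAT0000230), miR-199b-5p (MIMAT0000672), miR-199b-3p (MIMAT0004667) and miR-214-3p (MIMAT0000661), together with the locus on the opposite arm of the miR-214 hairpin, miR-214-5p (MIMAT0004664). That rule found 8 loci, which stand for 6 mature identifiers, among 2110 loci and 1966 identifiers in the table. The groups were vesicles from the muscle of old mice (3 libraries) and of young mice (3 libraries). No strain, genotype, treatment, exact age, sex, named muscle or way of isolating the vesicles is given for either group in the sources used here. Nor is it given whether replicates came from separate or pooled animals, and the p-values below therefore cover the spread among these libraries alone, which may be technical.

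A miRNA is cut from an RNA hairpin, and either arm of the hairpin, the 5p arm or the 3p arm, can be loaded into an Argonaute protein to repress mRNAs that pair with its seed, bases 2 to 8. The miR-199 and miR-214 hairpins lie opposite to introns of the dynamin genes, and Mir199a-2 and Mir214 are processed from 1 long transcript, Dnm3os. These miRNAs are known from mesenchymal cells such as fibroblasts and are studied in fibrosis. In fibroblasts of the lung miR-199a-5p represses caveolin-1, in rodent heart cells miR-199a-3p promotes proliferation, and in mouse skeletal muscle cells miR-214 represses the Polycomb protein Ezh2 during differentiation. That background is the source of the name fibroblast miRNAs. Counts from mixed vesicles carry no label of the releasing cell, so the cell type was not tested.

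The 5 distinct mature sequences are shown first, because identity between them decides which counts can be told apart. Capitals mark the seed. The sequences come from RefSeq (GRCm38.p6, the assembly also called mm10), and that of miR-199b-5p was read from the RefSeq hairpin entry at the deposited coordinates.
miR-199a-5p: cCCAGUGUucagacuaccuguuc
miR-199b-5p: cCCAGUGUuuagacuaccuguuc
miR-199a-3p and miR-199b-3p: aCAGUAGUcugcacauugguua
miR-214-5p: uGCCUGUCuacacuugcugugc
miR-214-3p: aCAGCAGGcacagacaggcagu
The 3p arms of miR-199a and miR-199b are the same 22 bases. Their 5p arms of 23 bases differ at 1 base, C10U from miR-199a-5p to miR-199b-5p counted from the 5′ end, and share the seed CCAGUGU. The seed of miR-214-3p, CAGCAGG, is also that of miR-761 (chromosome 4, 109017669 to 109017690), which held 0 counts in every library. No other locus with a RefSeq mature sequence, 1740 of the 2110, carried the seed of a member.

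The 4 hairpins place the arms. Capitals mark both mature arms of each.
Mir199a-2: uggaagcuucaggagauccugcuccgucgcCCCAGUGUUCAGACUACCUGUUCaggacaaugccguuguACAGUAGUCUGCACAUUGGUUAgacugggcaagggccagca
Mir199a-1: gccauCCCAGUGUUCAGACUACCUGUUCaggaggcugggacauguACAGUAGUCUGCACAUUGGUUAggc
Mir199b: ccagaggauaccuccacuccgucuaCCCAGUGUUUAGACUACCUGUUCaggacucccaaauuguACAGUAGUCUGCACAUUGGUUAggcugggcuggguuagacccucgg
Mir214: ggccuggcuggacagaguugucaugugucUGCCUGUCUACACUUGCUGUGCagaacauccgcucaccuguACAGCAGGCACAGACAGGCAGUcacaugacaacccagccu
Mir199a-2 (chr1:162217814-162217923, plus strand) and Mir214 (chr1:162223368-162223477, plus strand) lie in exons of Dnm3os and opposite to an intron of Dnm3, with 5492 bases between miR-199a-3p and miR-214-5p. Mir199a-1 (chr9:21496495-21496564, minus strand) lies opposite to an intron of Dnm2. Mir199b (chr2:32318460-32318569, plus strand) lies opposite to an intron of Dnm1. None of the 8 mature loci overlapped another locus of the table, so none lost reads to such an overlap.

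Counts at loci with 1 sequence were nearly even. The shared miR-199-3p sequence had 6894, 6789 and 6899 counts at Mir199a-2, Mir199a-1 and Mir199b in old replicate 1. In young replicate 1 the same 3 loci had 9348, 9228 and 9094 counts. Over the 6 libraries the highest of these 3 loci exceeded the lowest by a factor of 1.01 to 1.03. The 2 loci of miR-199a-5p were likewise within a factor of 1.01 to 1.04. Reads of 1 sequence can therefore not be assigned to 1 of these hairpins, and each such set of loci stands for 1 measurement.

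**Figure D1:**
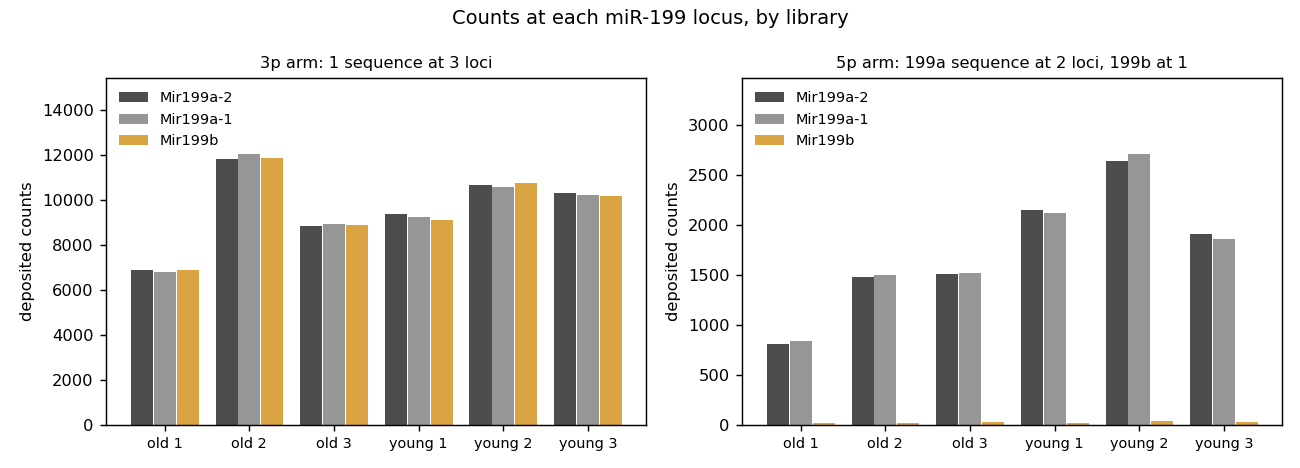
Deposited counts (vertical axis) at each miR-199 locus in each library (horizontal axis), with the 3p arm on the left, the 5p arm on the right and 1 bar per hairpin. The 3 bars of the 3p arm are nearly level in every library, while on the 5p arm the Mir199b bar holds 14 to 38 counts beside 812 counts or more at each Mir199a locus.

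The 5p arm differs between the paralogs at 1 base, so miR-199a-5p and miR-199b-5p were counted apart. Whether reads of miR-199a-5p with an error at that base added to the miR-199b-5p counts was not tested. miR-199b-5p had 18, 21 and 26 counts in old replicates 1, 2 and 3 and 14, 38 and 30 counts in young replicates 1, 2 and 3. miR-199a-5p had 1654, 2977 and 3038 counts over both loci in the old libraries and 4277, 5349 and 3781 counts in the young libraries. As a share of the 5p counts of the family, miR-199b held 0.875% ± 0.189 in old and 0.606% ± 0.246 in young libraries (SD, n = 3 each; exact permutation p = 0.3, two-sided, where 0.1 is the smallest possible). Its exact binomial 95% intervals ran from 0.178% to 0.547% in the lowest library, young replicate 1, and from 0.639% to 1.70% in the highest, old replicate 1. These intervals cover counting error only. Within libraries miR-199a-5p exceeded miR-199b-5p by a mean of 7.12 ± 0.58 on the log2 scale (SD over 6 libraries), a factor of 139, and did so in 6 of 6 libraries. The exact sign-flip permutation test, paired by library and two-sided, gave p = 0.03125, the smallest that 6 libraries allow, and the same value adjusted over the 3 comparisons within libraries.

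The level of the 5 sequences is given as CPM, the count scaled to a common library size by the trimmed mean of M-values (TMM), with identical copies summed. miR-199-3p averaged 20821 CPM over the 6 libraries, which placed it at rank 7 of 316 tested miRNAs. It was followed by miR-199a-5p with 2464 CPM at rank 38 and by miR-214-3p with 882 CPM at rank 58. miR-214-5p averaged 162 CPM, rank 118, and miR-199b-5p 17.5 CPM, rank 243. Neighbours in this order did not overlap in any library, since the lowest miR-199a-5p value, 1629 CPM, lay above the highest miR-214-3p value, 1119.6 CPM. Each sequence is 22 or 23 bases long and a read covers 1 molecule, so length does not alter this order. Whether each sequence entered the libraries equally was not tested, so the order is one of counts. Together the 8 loci held 2.54% ± 0.303 of all counts in old and 2.33% ± 0.0438 in young libraries (SD, n = 3 each; exact permutation p = 0.4, two-sided). The difference of 0.210 percentage points became 0.0657 without old replicate 2 and 0.368 without old replicate 3. It turned to -0.0120 when miR-21a-5p was taken out of the total (exact permutation p = 1).

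The 3p arm had more counts than the 5p arm in both families, and whether both arms entered the libraries equally was not tested. For miR-199, with all hairpins summed, 3p counts were 12.3, 11.9 and 8.69 times the 5p counts in old replicates 1, 2 and 3, and 6.45, 5.94 and 8.05 times in young replicates 1, 2 and 3. For miR-214 the ratio was 3.74, 6.52 and 3.20 in the old libraries and 7.96, 5.18 and 8.08 in the young libraries. The mean log2 ratio over 6 libraries was 3.10 ± 0.44 for miR-199 and 2.44 ± 0.56 for miR-214 (SD), and 3p was higher in 6 of 6 libraries in each. Both gave p = 0.03125 in the exact sign-flip permutation test, again the smallest possible, unchanged by adjustment over the 3 comparisons.

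Neither 5p arm was rare beside its partner. miR-214-5p made up 21.1%, 13.3% and 23.8% of the miR-214 counts in old replicates 1, 2 and 3, with exact binomial 95% intervals of 18.6% to 23.8%, 11.6% to 15.2% and 21.3% to 26.5%. In young replicates 1, 2 and 3 it made up 11.2%, 16.2% and 11.02%, with intervals of 9.74% to 12.7%, 14.5% to 18.0% and 9.58% to 12.6%. These intervals also cover counting error only. The shares of old replicates 1 and 3 were above those of every young library, while old replicate 2 lay among them, and the exact permutation test between the groups gave p = 0.2 (two-sided, where 0.1 is the smallest possible). Over 78 hairpins or sets of hairpins that share a mature miRNA, with both arms counted, the lesser arm held a median of 7.17% of the counts. miR-214, at 15.1% over all libraries, was the 26th highest and miR-199, at 10.9%, the 30th, and 3p exceeded 5p in 27 of the 78. These ranks are a description, without a test.

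The question put to the age groups was whether the relative amount of these miRNAs differs between vesicles of old and young muscle. None of the 8 loci passed edgeR's quasi-likelihood test over 347 loci (adjusted p of 0.139 to 0.965), where 4.32% of all loci were called. DESeq2 also called 0 of the 8. At an unadjusted p under 0.05 in edgeR there were 3, both loci of miR-199a-5p, which are copies of 1 sequence, and that of miR-214-3p, where 78 of the 347 loci, or 22.5%, had such a p. With copies summed, 0 of the 5 sequences passed, against 6.33% of the 316 tested. The log2 fold changes of the 8 loci had a median of 0.11, with 5 above 0 and 3 below, beside a median of 0.04 over all loci tested. Fewer vesicles from a cell type and less of a miRNA per vesicle cannot be told apart in such bulk samples.

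**Figure D2:**
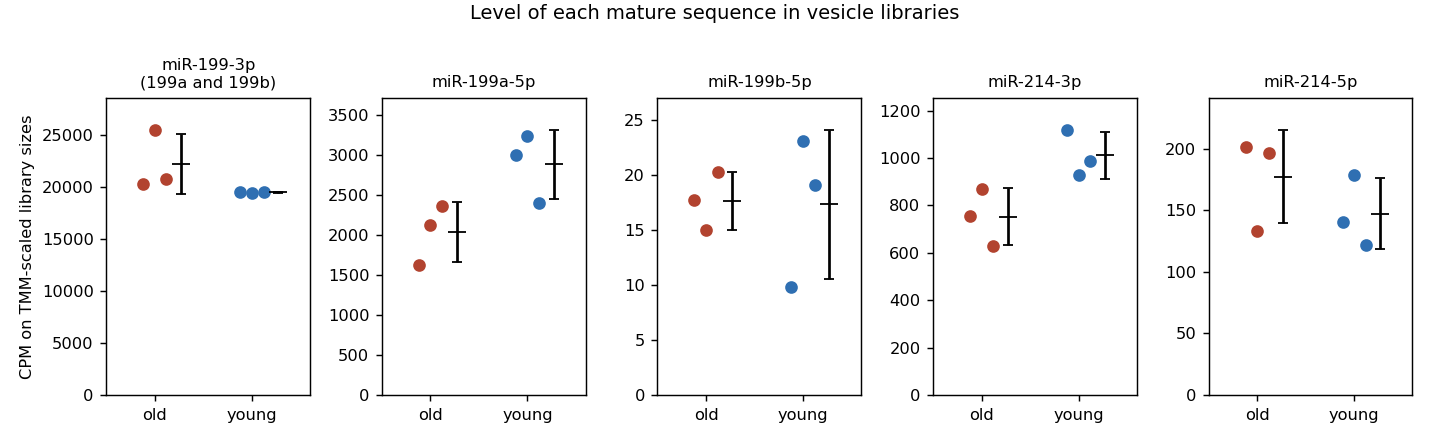
CPM on TMM-scaled library sizes (vertical axes, from 0 and scaled per panel) of the 5 mature sequences in old and young libraries, with 1 point per library and the mean ± SD beside them. All old points of miR-199a-5p and miR-214-3p lie below all young points, those of miR-199-3p lie above, and the groups overlap for miR-199b-5p and miR-214-5p.

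Of the 5p arms, miR-199a-5p had 1629, 2127 and 2367 CPM in old replicates 1, 2 and 3 and 3009.7, 3246 and 2408 CPM in young replicates 1, 2 and 3. All 3 old values were below all young values, although old replicate 3 and young replicate 3 nearly met. The means were 2041 ± 377 CPM in old and 2888 ± 432 CPM in young libraries (SD, n = 3 each), or -0.50 ± 0.18 as the log2 fold change (SE; 95% interval -0.87 to -0.13), which missed the threshold (adjusted p = 0.112 by edgeR). At the single loci the log2 fold change was -0.49 at Mir199a-2 and -0.47 at Mir199a-1 (adjusted p = 0.139 by edgeR at each).

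miR-199b-5p, which shares the seed of miR-199a-5p, had 17.7, 15.002 and 20.3 CPM in old replicates 1, 2 and 3 and 9.85, 23.1 and 19.1 CPM in young replicates 1, 2 and 3. The groups overlapped, and young replicate 1 was the lowest library. Its log2 fold change was 0.01 ± 0.40 (SE; 95% interval -0.82 to 0.85; adjusted p = 0.992 by edgeR), an interval that includes the difference seen in miR-199a-5p. Its direction depended on single libraries, since in the fit by locus it was 0.03, but -0.28 without young replicate 1 and -0.09 without old replicate 3.

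miR-214-5p, the less abundant arm of its hairpin, had 202, 134 and 197 CPM in old replicates 1, 2 and 3 and 141, 179 and 122 CPM in young replicates 1, 2 and 3. The groups overlapped. The log2 fold change was 0.27 ± 0.23 (SE; 95% interval -0.21 to 0.74; adjusted p = 0.581 by edgeR). In the fit by locus it was 0.29, and its size moved with single libraries, to 0.18, 0.46 and 0.19 without old replicates 1, 2 and 3, and to 0.45 and 0.17 without young replicates 2 and 3. None of these passed (adjusted p of 0.355 or more by edgeR).

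Of the 3p arms, miR-199-3p had 20265, 25493 and 20753 CPM in old replicates 1, 2 and 3 and 19471, 19403 and 19540.0 CPM in young replicates 1, 2 and 3. The young libraries were close together and all old libraries lay above them, old replicate 2 farthest. The means were 22170.3 ± 2888 CPM in old and 19471 ± 68.4 CPM in young libraries (SD, n = 3 each), a log2 fold change of 0.19 ± 0.17 (SE; 95% interval -0.16 to 0.53; adjusted p = 0.590 by edgeR). The value was smaller without old replicate 2. Locus by locus the log2 fold change was 0.20 at Mir199a-2, 0.22 at Mir199a-1 and 0.21 at Mir199b, and without that library it was 0.09, 0.10 and 0.11 (adjusted p of 0.767 to 0.800 by edgeR).

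miR-214-3p, the arm that in mouse muscle cells represses Ezh2, had 754, 871 and 630.3 CPM in old replicates 1, 2 and 3 and 1119.6, 927 and 988 CPM in young replicates 1, 2 and 3. Every old library lay below every young one. The means were 752 ± 120.3 CPM in old and 1011 ± 98.6 CPM in young libraries (SD, n = 3 each), a log2 fold change of -0.43 ± 0.18 (SE; 95% interval -0.80 to -0.06; adjusted p = 0.160 by edgeR). Groups that did not overlap were found at 6 of the 8 loci, those of miR-199a-5p, miR-199-3p and miR-214-3p, where 27.1% of all loci tested had such groups. These 6 loci stand for 3 of the 5 sequences, against 25.3% of the 316 tested with copies summed.

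**Figure D3:**
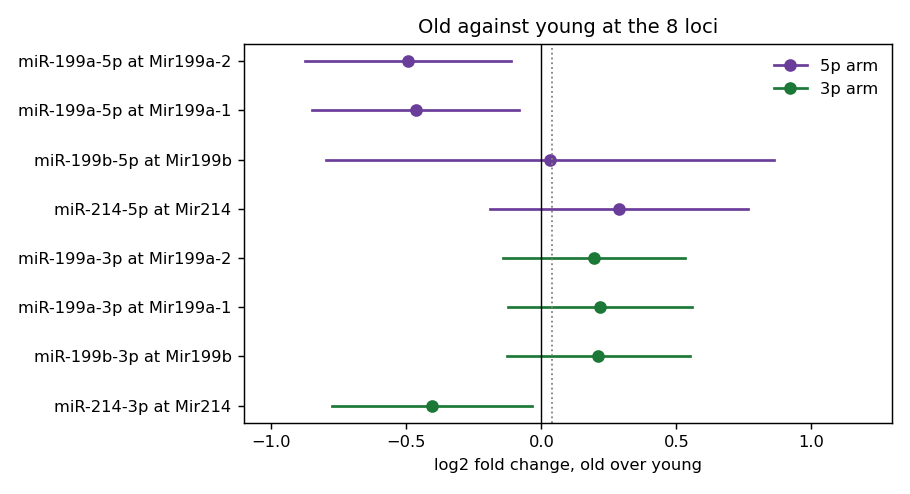
Log2 fold change of old over young (horizontal axis) at the 8 loci (vertical axis), with 95% intervals from edgeR and the arm in colour; the dotted line is the median of all loci tested, 0.04. The intervals of both miR-199a-5p loci and of miR-214-3p lie below 0 and the other 5 span it, and none of the 8 passed after adjustment over 347 loci.

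Old replicate 1 stood apart from the other old libraries. Its counts differed from theirs by a chi-square of 211 and 334 per degree of freedom, while the other old libraries differed by 35.6 and the young ones by 16.9 to 33.7. Striated muscle miRNAs held 9.91% of its counts, against 4.61% and 5.83% in the other old libraries and 4.95% to 6.26% in the young ones. The most abundant of them, miR-206-3p, had 79255 CPM in this library and at most 55441 CPM in any other. miR-21a-5p was lower here, at 323151 CPM, while every other library held at least 484167 CPM of it. The miR-199a-5p level of old replicate 1 was the lowest of the 6 libraries. Without it, the log2 fold change of miR-199a-5p was -0.35 at Mir199a-2 and -0.33 at Mir199a-1 (adjusted p = 0.149 and 0.179 by edgeR), and that of miR-214-3p was -0.39 (adjusted p = 0.114 by edgeR). The part of the other contents of this library in these values was not tested.

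The ratio of the arms was compared between the ages next, and no test of it passed. For miR-199 the log2 ratio of 3p to 5p averaged 3.44 ± 0.28 in old and 2.76 ± 0.23 in young libraries (SD, n = 3 each), a difference of 0.68 with no overlap between the groups. The nearest libraries were old replicate 3 with 8.69 and young replicate 3 with 8.05 as the 3p to 5p ratio. The exact permutation test gave p = 0.1, the smallest possible for 3 against 3 libraries. For miR-214 the log2 ratio averaged 2.09 ± 0.54 in old and 2.79 ± 0.36 in young libraries (SD, n = 3 each), a difference of -0.70 with old replicate 2 among the young libraries (exact permutation p = 0.2). A ratio within a library does not depend on how libraries are scaled. Without old replicate 1 the differences were 0.59 for miR-199 and -0.60 for miR-214.

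**Figure D4:**
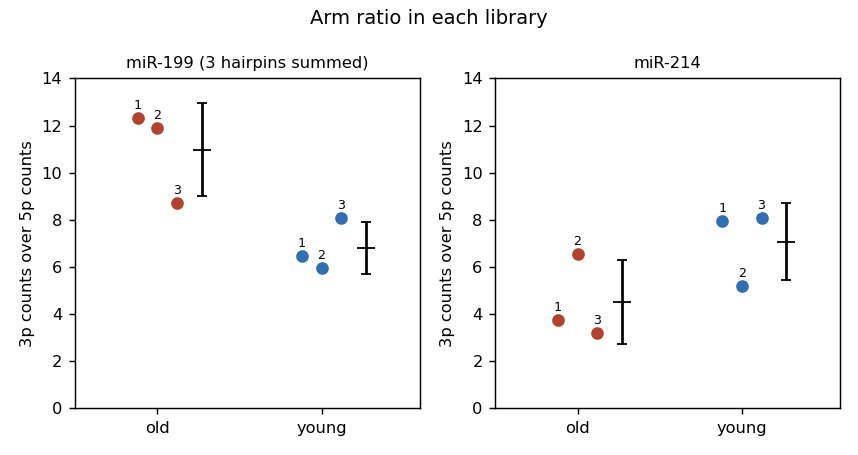
Counts of the 3p arm over counts of the 5p arm (vertical axes, from 0) in each old and young library, numbered by replicate, with mean ± SD, for miR-199 with its 3 hairpins summed and for miR-214. The old libraries lie above the young ones for miR-199, between 8.69 and 12.3 against 5.94 and 8.05, while for miR-214 old replicates 1 and 3 lie below every young library.

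The same ratio was fitted with limma in all 78 hairpins or sets of hairpins, an analysis added after these values were seen. In that fit the old minus young difference of the miR-199 log2 ratio was 0.68 ± 0.24 (SE; 95% interval 0.14 to 1.23; unadjusted p = 0.0188, adjusted p = 0.366 by limma) and ranked 4th of 78 by p. The miR-214 ratio differed by -0.70 ± 0.34 (SE; 95% interval -1.45 to 0.06; unadjusted p = 0.0669, adjusted p = 0.551 by limma) and ranked 7th. limma called 0% of the 78 ratios, and 5 had an unadjusted p under 0.05; no other tool was run on all 78. Old and young ratios did not overlap in 12.8% of the 78, miR-199 among them and miR-214 not. The median size of the difference over all 78, without sign, was 0.40. A difference between miR-199 and miR-214 in how the arms moved was not tested.

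**Figure D5:**
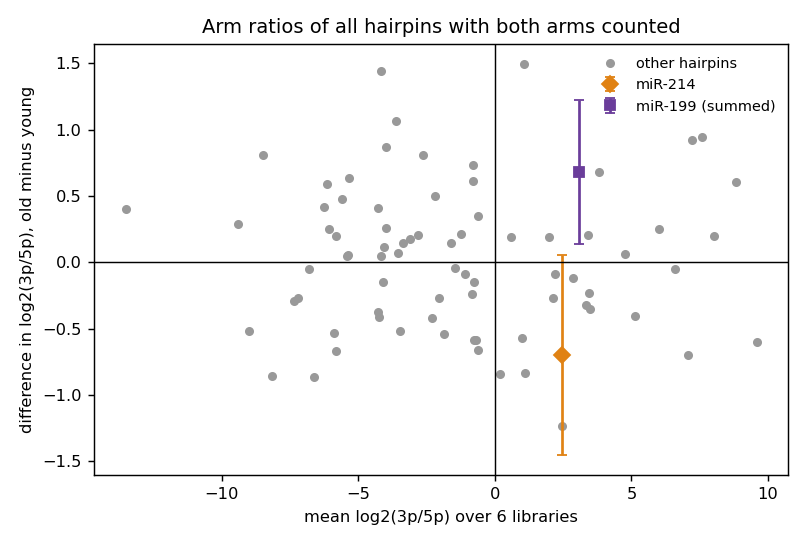
Difference in log2 3p to 5p ratio, old minus young (vertical axis), against its mean over the 6 libraries (horizontal axis). Points are 78 hairpins or sets of hairpins that share a mature miRNA, with limma's 95% intervals for miR-199 and miR-214. miR-199 at 0.68 and miR-214 at -0.70 lie on opposite sides of 0 and within the range of the other hairpins.

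Mir214 and Mir199a-2 share the Dnm3os transcript, but both arms of Mir199a-2 have the sequence of those of Mir199a-1. The ratio of miR-214-3p to miR-199a-5p therefore cannot be read as a relation on that transcript alone. miR-214-3p counts were 0.463, 0.409 and 0.266 times the miR-199a-5p counts in old replicates 1, 2 and 3 and 0.372, 0.285 and 0.410 times in young replicates 1, 2 and 3. The means were 0.380 ± 0.102 in old and 0.356 ± 0.0639 in young libraries (SD, n = 3 each; exact permutation p = 0.8, two-sided). The groups overlapped.

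Likeness of pattern was described by Pearson's r of log2 CPM over the 6 libraries, with copies summed and the members left out. All points share the library scaling and the age groups. The miRNAs below were picked for the highest r among all tested, over only 6 libraries, and r was not tested. The miRNAs most like miR-199-3p were miR-142a-5p (r = 0.965), miR-34b-5p (0.880) and miR-320-5p (0.873). Most like miR-214-3p were miR-183-3p (0.914), miR-384-5p (0.875) and miR-140-3p (0.858). For miR-199a-5p, added after the values were seen, they were miR-322-5p (0.989), miR-872-3p (0.962) and miR-378a-5p (0.960).

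Other miRNAs studied in mesenchymal cells and fibrosis were read from lists, where 15 of all 347 loci tested, or 4.32%, were called. Some miRNAs stand in more than 1 of the lists given here and below, the called miR-143-3p, miR-133a-3p and miR-155-5p among them. Of the smooth muscle and pericyte list (miR-143 and miR-145a), 3 loci were tested and 1 rose, miR-143-3p, with 24356 ± 767 CPM in old and 14954 ± 889 CPM in young libraries (SD, n = 3 each; log2 fold change 0.70, adjusted p = 0.0137 by edgeR). miR-145a-5p, at 0.42, missed the threshold. This list held 2.25% to 2.77% of the counts in old and 1.43% to 1.67% in young libraries, and its median was 0.59. Of 6 loci studied as promoting fibrosis, miR-143-3p rose, miR-155-5p fell (log2 fold change -0.81, adjusted p = 0.0135 by edgeR) and 4 did not pass, miR-21a-5p at -0.15 among them, with a median of 0.25. Of 11 loci studied as limiting it, both copies of miR-133a-3p rose and 9 did not pass, miR-26a-5p at 0.26 among them, with a median of 0.11. Above 0 were 7 of the 11, and the copies of miR-30c-5p were lowest, at -0.85 and -0.73 (adjusted p = 0.0691 and 0.139 by edgeR).

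Lists of other cell types were read beside the members. Of 6 tested striated muscle loci 4 rose (both copies of miR-133a-3p, which are 1 sequence, miR-499-5p and miR-1a-3p), with a median of 0.86. Over all 347 loci tested 4.32% were called. miR-206-3p, the most abundant, was at 0.17 and did not pass. This list has 8 loci, so not all were tested, and miR-1a-3p was tested at 1 copy only. Of the untested loci 1 was at 0 and overlaps another locus, so the share of the list lacks it. Of the 3 red blood cell loci none passed, miR-451a being at 0.06 and miR-144-3p at 0.31, with a median of 0.31 and 4.13% to 4.52% of the counts in old against 4.03% to 4.36% in young libraries. Among 4 tested leukocyte loci the only call was miR-155-5p, which fell, with a median of 0.10. miR-155-5p, the most abundant of them, had 407 ± 25.9 CPM in old and 713 ± 111 CPM in young libraries (SD, n = 3 each). miR-223-3p at 0.11, miR-150-5p at 0.09 and miR-142a-5p at 0.79 were above 0 and did not pass. The other locus of this list, miR-142a-3p, was at 0 and overlaps another locus, so its level could not be read. Without it the list held 0.0882% to 0.108% of the counts in old and 0.111% to 0.138% in young libraries. The single tested epithelial locus, miR-200a-3p, did not pass, and its list held at most 0.00205% of the counts. Both endothelial loci, of miR-126a, were at 0 and overlap another locus, so their level could not be read. The part of these cell types in the values of the members was not tested.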

How the data were processed

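The authors deposited raw counts for each mature miRNA locus, made with featureCounts 2.0.6 using no strand, overlap or multi-mapping option, per the file headers. Alignment was with BWA to mm10, per the submitters' processing notes. The version of BWA is not given in the sources used here, nor is any trimming. Totals were 904892 to 1417733 counts in old and 1459826 to 1706396 in young libraries. No 2 libraries of a group agreed within sampling noise. Names came from RefSeq (GRCm38.p6), by position or by the same identifier at another locus, for 1740 of 2110 loci and otherwise from GENCODE M21 hairpins.

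Loci were tested with edgeR 4.0.16 (R 4.3.3): filterByExpr (minimum count 10, total 15), TMM and the quasi-likelihood test, with Benjamini-Hochberg adjustment over 347 loci and a threshold of 0.05. Each standard error was the unshrunken coefficient over the root of F. Arm ratios used a pseudocount of 0.5, exact two-sided permutation tests (scipy 1.17.1) and limma 3.58.1 with a variance trend on the lesser arm, over hairpins with at least 10 counts of each arm in 3 libraries. DESeq2 1.42.0, other scaling, no filter, summed copies, left-out libraries and a replicate block were alternatives.

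The members and lists were chosen with earlier results of these data known. All member loci were named, with the 3 miRNAs of highest r for miR-199-3p and miR-214-3p, those sharing a seed, and the 2 most abundant and all called loci of every list. The copies of miR-30c-5p were named afterwards, as the lowest loci of their list.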

Additional observations from a re-analysis of the deposited data

How the results depend on the processing

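None of the 8 loci was called under any alternative run: other scaling, DESeq2, no filter, summed copies, the replicate block or any library left out. Each kept its direction except miR-199b-5p, whose log2 fold change ranged from -0.28 to 0.29 with a library left out, below 0 without young replicate 1 (-0.28) or old replicate 3 (-0.09); the cause was not tested. Over all loci, 15 were called, 6 with the replicate block and 5 to 45 with a library left out, the 45 without old replicate 1. The share of counts held by the members, higher by 0.210 percentage points in old, was lower by a difference of -0.0120 when miR-21a-5p was taken out of the total (exact permutation p = 1). With a library left out it was 0.0657 to 0.368.

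The comparisons within libraries kept their direction with any library left out, at 2.99 to 3.20 for miR-199 arms, 2.33 to 2.59 for miR-214 arms and 6.90 to 7.25 for miR-199a-5p against miR-199b-5p. The smallest possible exact p is then 0.0625, so none could pass. The arm ratio difference between ages was 0.589 to 0.841 for miR-199 and -1.003 to -0.490 for miR-214 with a library left out. For miR-199 it was 0.684 with the miR-199a loci alone (exact permutation p = 0.1). With the miR-199b hairpin alone it was 0.077 (exact permutation p = 0.8), on 14 to 38 counts of the 5p arm per library. The 3p counts of these hairpins cannot be told apart. limma called 0 ratios, and 1, of neither family, without old replicate 1.

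Equal replicate numbers did not pair the libraries (correlations of deviations from the group means -0.13, 0.02 and -0.15). With the replicate block the miR-199 ratio difference was 0.68 (exact p = 0.25) and that of miR-214 -0.70 (exact p = 0.5). miR-199b-5p had the lowest counts of the members, 14 to 38 per library, and the part of depth in the width of its interval was not tested.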
